A study of Mus musculus with 11 samples.

Results

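The genes described here encode 7 molecules by which the intestinal epithelium addresses intraepithelial lymphocytes, the T cells that lie between its cells. They were taken by name: the butyrophilin-like genes Btnl1, Btnl2, Btnl4 and Btnl6, the thymus leukaemia antigen gene H2-T3, the cytokine gene Il15 and Il15ra, the gene of the alpha chain of its receptor. All 7 were among the 31168 named genes of the count table, and all 7 were among the 15911 genes with enough counts to test. The RNA came from 2 cm of distal ileum, the far end of the small bowel, of mice treated with dextran sodium sulfate, a polysaccharide that injures the intestinal lining. The dIEC group of 5 libraries came from mice of genotype H2-Ab1 fl/fl with Villin:Cre+, and the WT group of 6 libraries from mice of genotype H2-Ab1 fl/fl with Villin:Cre-. Both groups therefore carried floxed H2-Ab1, which encodes an MHC class II beta chain, and both received dextran sodium sulfate, with no untreated group. The villin promoter drives Cre recombinase in intestinal epithelial cells. The series' design text gives Villin:Cre- for both groups, and the grouping follows the labels of each sample. The sources used here give no dose, duration, age or strain.

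As background, the products of Btnl1 and Btnl6 pair on the surface of mouse enterocytes and are recognised by gamma-delta T cells whose receptor uses the Vγ7 chain, which depend on Btnl1 for their maturation. The Btnl2 product restrained T cell activation in cultured mouse cells. H2-T3 encodes a class I-like heavy chain that pairs with beta-2 microglobulin and binds the CD8αα homodimer carried by many intraepithelial lymphocytes. Interleukin-15 is held on the cell surface by the receptor alpha chain and presented to neighbouring lymphocytes, and CD8αα intraepithelial lymphocytes need it for survival.

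The piece was whole tissue, so a lower value can mean fewer epithelial cells or less RNA per cell, which cannot be told apart. Total counts ran from 6603965 to 9681698 per library, of which ribosomal RNA took 37.0 to 57.0%. Leaving out Lars2, protein-coding genes held 1510296 to 3215574 counts. H2-Ab1 had 16.8 to 39.2 CPM (counts per 1000000, with library sizes scaled by TMM) in dIEC and 47.5 to 112 CPM in WT, with no overlap. Every dIEC library lay below every WT library in 0.333% of the 15911 genes tested. The log2 fold change of H2-Ab1, dIEC against WT, was -1.68 ± 0.28 (SE, edgeR quasi-likelihood test, adjusted p = 0.361) and did not pass 0.05. In the mean log2 CPM of absorptive enterocyte genes, dIEC replicate 6 had 6.16 where the rest of its group had 6.98 to 7.51. WT replicate 8 had 7.54, the highest of all 11 libraries, where the rest of its group had 5.68 to 6.63. Enterocyte RNA therefore varied within both groups.

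Of the 7 genes, 5 lie on chromosome 17 (GRCm38). Btnl2 (34354822 to 34369495) and Btnl1 (34377132 to 34386028) are on the plus strand, and Btnl4 (34466562 to 34477318) and Btnl6 (34507804 to 34517352) on the minus strand, with the transcribed pseudogene Btnl5-ps (34488070 to 34497429) between them and the pseudogene Btnl7-ps (34532877 to 34547651) beyond. H2-T3 occupies 36185572 to 36190287 on the minus strand of the same chromosome. Il15 is on chromosome 8 (82331632 to 82403222, minus strand) and Il15ra on chromosome 2 (11705290 to 11734317, plus strand). No annotated gene overlaps any of the 7.

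Btnl4, Btnl6 and the pseudogenes are close copies, which bears on how far their counts can be separated. Below is the stretch of 60 bases of the Btnl6 coding sequence (chr17:34508135-34508194, minus strand) that its copies share most closely, with the best match in each gene (GENCODE vM21 transcripts, all exonic, and coding in Btnl6, Btnl4 and Btnl1), and with capitals where a base differs from Btnl6.
Btnl6: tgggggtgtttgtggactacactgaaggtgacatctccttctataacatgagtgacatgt
Btnl4: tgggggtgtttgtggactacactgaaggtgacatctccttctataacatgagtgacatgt
Btnl7-ps: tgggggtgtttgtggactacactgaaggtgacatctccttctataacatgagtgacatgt
Btnl5-ps: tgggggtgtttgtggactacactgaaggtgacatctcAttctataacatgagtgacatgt
Btnl1: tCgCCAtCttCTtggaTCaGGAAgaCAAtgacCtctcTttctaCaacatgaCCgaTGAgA
Btnl4 (chr17:34469374-34469433, minus strand) and Btnl7-ps (chr17:34533203-34533262, minus strand) had 0 mismatches to Btnl6 here, Btnl5-ps (chr17:34488398-34488457, minus strand) had 1, and Btnl1 (chr17:34385619-34385678, plus strand) had 25. A single read lying wholly within this stretch cannot be assigned by its sequence among Btnl6, Btnl4 and Btnl7-ps, whereas a read from the Btnl1 match can be told from them. Over the whole coding sequence of Btnl6 (1617 bases) the identity was 90.8% with Btnl5-ps, 91.0% with Btnl7-ps, 89.7% with Btnl4 and 67.5% with Btnl1. Of all stretches of 50 bases in the Btnl6 transcripts, 6.58% occur unchanged in a transcript of another gene, and 44.9% occur in a family member if up to 2 mismatches are allowed. For Btnl4 these shares were 14.0% and 41.7%, and for Btnl1 and Btnl2 they were 0%. The sources used here state neither the read length nor how reads matching several places were counted, so values of Btnl4 and Btnl6 are less certain than those of Btnl1 and Btnl2. H2-T3 shared 0.894% of its stretches with other genes, and Il15 and Il15ra shared 0%.

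Levels differed widely among the 7 genes. Per 1000 bases of annotated exon, Btnl6 averaged 54.9 CPM over the 11 libraries, Btnl4 13.7, Btnl1 10.8, Btnl2 5.29, H2-T3 2.11, Il15 2.04 and Il15ra 1.59. Btnl6 lay above Btnl4, Btnl1 above Btnl2 and Btnl2 above H2-T3 in 11 of 11 libraries, Btnl4 above Btnl1 in 10 and Il15 above Il15ra in 10. H2-T3 lay above Il15 in only 7 of 11, so this neighbouring pair did not differ beyond the spread. H2-T3 rested on 11 to 80 counts per library, Il15 on 19 to 57 and Il15ra on 28 to 101, while Btnl6 had 370 to 1118. Counting error alone therefore sets a wide margin for the last 3 genes, and the 4.04 CPM of Il15 in dIEC replicate 3 (36 counts) has an exact Poisson 95% interval of 2.83 to 5.60 CPM.

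Between the groups, dIEC against WT, 6 of the 7 genes had log2 fold changes above 0, from 0.35 for Btnl4 to 0.77 for Btnl2, while Il15 had -0.081. The median of the 7 was 0.46, beside -0.0071 over all 15911 genes tested, of which 48.8% lay above 0. None of the 7 passed edgeR's quasi-likelihood test after Benjamini-Hochberg adjustment over all genes (0 of 7, adjusted p 0.427 to 0.911), where 0.00628% of all genes passed. At an unadjusted p under 0.05 by edgeR, 2 of the 7 lay higher in dIEC, Btnl2 and Btnl6, against a background of 4.87% of all genes tested, and 0 of the 7 lay lower, against 5.79%. DESeq2 likewise called 0 of the 7 (background 0.0691%), with 3 higher in dIEC at an unadjusted p under 0.05, against 4.91% of all genes tested. In Btnl2 and H2-T3, 4 of the 5 dIEC values exceeded every WT value, a placing that 2.09% of all genes tested had. Without WT replicate 8, 4 of the 7 had an unadjusted p under 0.05 with a higher level in dIEC (background 11.2%). No member separated the groups entirely.

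**Figure D1:**
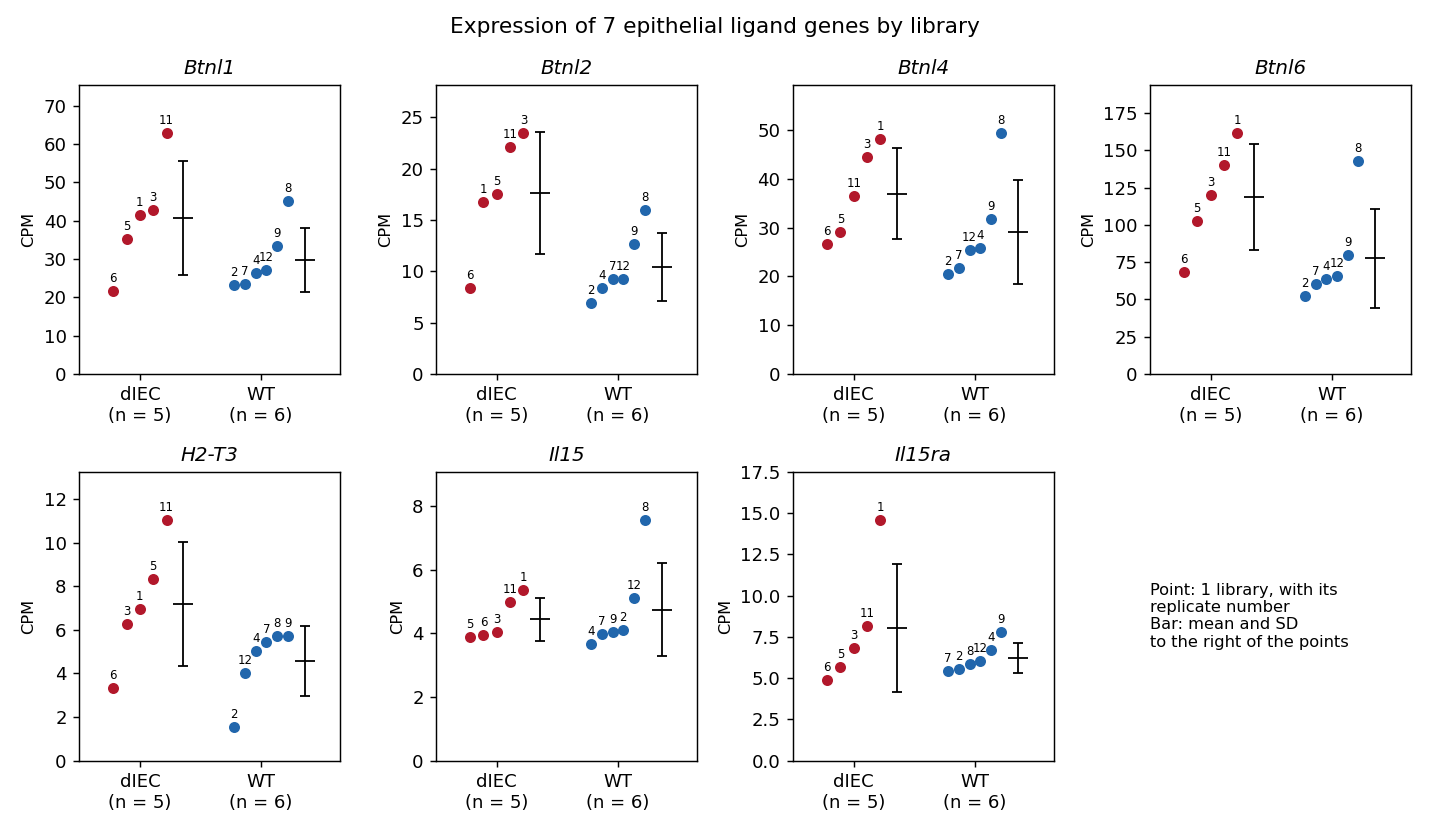
CPM (vertical axis, from 0) of the 7 genes in each library, dIEC (n = 5) left of WT (n = 6). Points are libraries with their replicate numbers, sorted by value, and bars give the mean and SD; WT replicate 8 has the highest WT value of Btnl1, Btnl2, Btnl4, Btnl6 and Il15, and dIEC replicate 6 the lowest dIEC value of every gene but Il15.

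Btnl1 had 41.3, 42.8, 35.2, 21.7 and 62.8 CPM in dIEC replicates 1, 3, 5, 6 and 11, against 23.1, 26.2, 23.5, 45.0, 33.4 and 27.0 CPM in WT replicates 2, 4, 7, 8, 9 and 12. The groups overlapped: dIEC replicate 6 lay below every WT library, and WT replicate 8 lay above every dIEC library but replicate 11. The mean was 40.8 ± 14.9 CPM in dIEC and 29.7 ± 8.34 CPM in WT (SD, n = 5 and 6). This is a log2 fold change of 0.46 ± 0.24 (SE, 95% interval -0.049 to 0.97, edgeR adjusted p = 0.490). Without dIEC replicate 11 it was 0.25.

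Btnl6, whose product is the partner of Btnl1, had 162, 120, 103, 68.5 and 140 CPM in dIEC replicates 1, 3, 5, 6 and 11, against 52.5, 63.7, 60.2, 143, 79.7 and 65.7 CPM in WT replicates 2, 4, 7, 8, 9 and 12. Apart from WT replicate 8, the WT libraries stayed at or under 79.7 CPM, and 4 of the 5 dIEC libraries lay above that level. The log2 fold change was 0.62 ± 0.26 (SE, 95% interval 0.051 to 1.18, edgeR adjusted p = 0.444). Without WT replicate 8 it was 0.88 and passed (edgeR adjusted p = 0.0421), the only one of the 7 to do so, while 2.02% of all genes passed in that fit (1.35% with a higher level in dIEC), against 0.00628% with all libraries. Adding the counts of both pseudogenes to Btnl6, an alternative chosen after the data were seen, gave 0.57 (edgeR adjusted p = 0.459).

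The pseudogene Btnl5-ps followed Btnl6 closely, with 67.7 to 132 CPM in dIEC and 55.9 to 136 CPM in WT. The ratio of Btnl6 to Btnl5-ps counts was 0.961 to 1.31 in dIEC and 0.939 to 1.05 in WT. Btnl7-ps had 10.9 to 40.7 CPM in dIEC and 8.51 to 34.6 CPM in WT. Of these pseudogenes neither passed (log2 fold change 0.51 and 0.66, edgeR adjusted p = 0.455 and 0.564). Other butyrophilin relatives were near the limit of detection: Btnl9 had 50 counts and Btnl10 had 4 counts over all 11 libraries.

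Btnl4 had 48.1, 44.5, 29.1, 26.6 and 36.5 CPM in dIEC replicates 1, 3, 5, 6 and 11, against 20.4, 25.8, 21.7, 49.4, 31.9 and 25.4 CPM in WT replicates 2, 4, 7, 8, 9 and 12. The highest library of all was WT replicate 8, and the log2 fold change was 0.35 ± 0.23 (SE, 95% interval -0.14 to 0.83, edgeR adjusted p = 0.565). Without WT replicate 8 it was 0.56, with an edgeR adjusted p of 0.0823.

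Btnl2, the butyrophilin-like gene next to the class II region, had the largest fold change of the 7. It had 16.8, 23.5, 17.5, 8.39 and 22.1 CPM in dIEC replicates 1, 3, 5, 6 and 11, against 6.95, 8.36, 9.20, 15.9, 12.7 and 9.27 CPM in WT replicates 2, 4, 7, 8, 9 and 12. Here 4 of the 5 dIEC libraries lay above WT replicate 8, and dIEC replicate 6 lay among the WT libraries. The mean was 17.6 ± 5.92 CPM in dIEC and 10.4 ± 3.30 CPM in WT (SD, n = 5 and 6). The fitted level in dIEC was 1.70 times that in WT (log2 fold change 0.77 ± 0.25 SE, 95% interval 0.23 to 1.31), with an unadjusted edgeR p of 0.00884 and an adjusted p of 0.427.

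H2-T3 had 6.94, 6.29, 8.35, 3.32 and 11.05 CPM in dIEC replicates 1, 3, 5, 6 and 11, against 1.56, 5.02, 5.43, 5.71, 5.73 and 4.03 CPM in WT replicates 2, 4, 7, 8, 9 and 12. The lowest value of all, in WT replicate 2, was 11 counts with an exact Poisson 95% interval of 0.779 to 2.79 CPM, and the highest, in dIEC replicate 11, was 80 counts. The log2 fold change was 0.63 ± 0.30 (SE, 95% interval -0.021 to 1.28, edgeR adjusted p = 0.471), and 0.41 without dIEC replicate 11. B2m, the light chain of its product, averaged 240 ± 70.8 CPM in dIEC and 150 ± 23.5 CPM in WT (SD, n = 5 and 6), with a log2 fold change of 0.68 ± 0.19 (SE, edgeR adjusted p = 0.427). Relative to B2m, H2-T3 lay at a log2 ratio of -5.09 ± 0.457 in dIEC and -5.11 ± 0.518 in WT (SD, difference 0.019, two-sided exact permutation p = 0.948).

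Il15 was the flattest of the 7. It had 5.35, 4.04, 3.87, 3.96 and 4.97 CPM in dIEC replicates 1, 3, 5, 6 and 11, against 4.11, 3.66, 3.99, 7.57, 4.04 and 5.11 CPM in WT replicates 2, 4, 7, 8, 9 and 12. All libraries but WT replicate 8 lay between 3.66 and 5.35 CPM. The log2 fold change was -0.081 ± 0.20 (SE, edgeR adjusted p = 0.911), and its 95% interval of -0.51 to 0.35 corresponds to 0.700 to 1.28 times the WT level. The sign turned without WT replicate 8, to 0.096 (edgeR adjusted p = 0.799).

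Il15ra had 14.6, 6.85, 5.70, 4.91 and 8.15 CPM in dIEC replicates 1, 3, 5, 6 and 11, against 5.53, 6.69, 5.43, 5.84, 7.80 and 6.05 CPM in WT replicates 2, 4, 7, 8, 9 and 12. The WT libraries were close together, and dIEC replicate 1 alone lay far above them. The log2 fold change of 0.37 ± 0.24 (SE, 95% interval -0.14 to 0.88, edgeR adjusted p = 0.560) was 0.047 without dIEC replicate 1 (adjusted p = 0.956). The ratio of Il15ra to Il15 counts was 1.76 ± 0.573 in dIEC and 1.40 ± 0.427 in WT (SD), a log2 difference of 0.33 within the spread of the libraries (two-sided exact permutation p = 0.286, 0.571 adjusted over 4 ratios). This difference was 0.16 without dIEC replicate 1 and 0.17 without WT replicate 8.

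The other ratios within a library, which do not depend on how libraries are scaled, gave no separation either. Btnl6 to Btnl1 was 3.01 ± 0.609 in dIEC and 2.54 ± 0.323 in WT (SD, log2 difference 0.23, two-sided exact permutation p = 0.141, adjusted 0.563). Outside WT replicate 8 (3.17) the WT libraries lay between 2.27 and 2.56, and 4 of the 5 dIEC libraries were above them, with 3.91 in dIEC replicate 1 and 2.23 in dIEC replicate 11. Without WT replicate 8 the log2 difference was 0.29 (exact permutation p = 0.0476) and without dIEC replicate 11 it was 0.33 (exact permutation p = 0.0333). Without dIEC replicate 1 it was 0.13 (exact permutation p = 0.300). Leaving out any other single library gave an exact permutation p of 0.162 to 0.224. These p were not adjusted for the number of omissions tried. Btnl4 to Btnl1 was 0.967 ± 0.265 in dIEC and 0.964 ± 0.0733 in WT (exact permutation p = 0.859), and dIEC replicate 11, at 0.580, had the lowest value. That library had the most Btnl1 of all and a middling level of Btnl4.

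**Figure D2:**
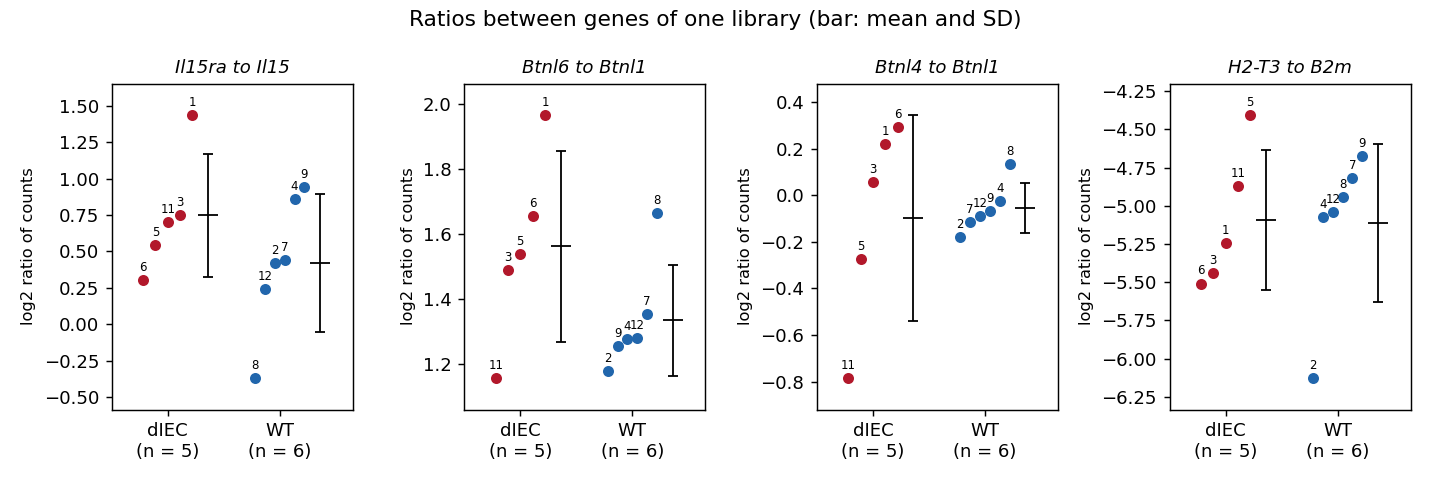
Log2 ratios of the counts of a pair of genes in each library (vertical axes, not from 0) for Il15ra to Il15, Btnl6 to Btnl1, Btnl4 to Btnl1 and H2-T3 to B2m, dIEC left of WT. Points are libraries with their replicate numbers and bars give the mean and SD; the groups overlap in all 4 ratios.

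The epithelial content and absorptive enterocyte scores (mean log2 CPM of each list) moved with the butyrophilin-like genes, and less closely with H2-T3, Il15 and Il15ra. Against the epithelial content score, Pearson's r was 0.934 for Btnl6, 0.902 for Btnl2, 0.890 for Btnl1 and 0.890 for Btnl4. The 15 genes of an epithelial content list, such as Cdh1 and Elf3, summed to 3260 to 4459 CPM in dIEC and 2657 to 4743 CPM in WT, with 15 of 15 log2 fold changes above 0 and a median of 0.32. Absorptive enterocyte genes had 21 of 21 tested members above 0 and a median of 0.66, with summed levels of 5183 to 12478 CPM in dIEC and 3418 to 13549 CPM in WT. Crypt genes lay below 0 in 12 of 12 cases (median -0.29, 186 to 458 CPM in dIEC and 372 to 457 CPM in WT). Over all genes tested, 48.8% lay above 0 and 0.00628% passed edgeR's adjusted threshold. No gene of these lists passed it. By the naming rule these included Elf3, an epithelial transcription factor gene, at 0.38 ± 0.15 (SE), Sis, the gene of sucrase-isomaltase, at 0.83 ± 0.32, and Slc12a2, at -0.27 ± 0.12. Over the 11 libraries the log2 CPM of Btnl6 followed the enterocyte score with Pearson's r = 0.980 and Spearman's rho = 0.973 (permutation p = 2e-05 for each, 0.00021 and 0.00014 adjusted over 14 relations of 7 genes with 2 scores). Without the 2 libraries farthest from the median score it was r = 0.982, and for deviations from the group means r = 0.971. Btnl4 had r = 0.936 (permutation p = 3e-05), Btnl1 r = 0.917 (permutation p = 0.00014) and Btnl2 r = 0.915 (permutation p = 0.00058), with rho of 0.973, 0.845 and 0.745 and with r of 0.911, 0.905 and 0.952 without those 2 libraries. H2-T3 had r = 0.678 and rho = 0.700 (permutation p = 0.0121 and 0.0200). Il15 had r = 0.556 (permutation p = 0.0597) and Il15ra r = 0.558 (permutation p = 0.0487, adjusted 0.0569), and r of Il15 was 0.395 without those 2 libraries. For deviations from the group means r was higher for Il15, at 0.759, and was 0.902 for Btnl1, 0.870 for Btnl2, 0.930 for Btnl4, 0.564 for H2-T3 and 0.479 for Il15ra. Against the epithelial content score Il15 had r = 0.628 and rho = 0.555 (permutation p = 0.0289 and 0.0823, adjusted 0.0368 and 0.0960), 0.351 without the 2 libraries farthest from the median of that score, and 0.820 for deviations from the group means. Il15ra had r = 0.384 and rho = 0.445 against the epithelial content score (permutation p = 0.256 and 0.172), and r = 0.261 for deviations from the group means. The pooled points include both groups and share library composition.

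**Figure D3:**
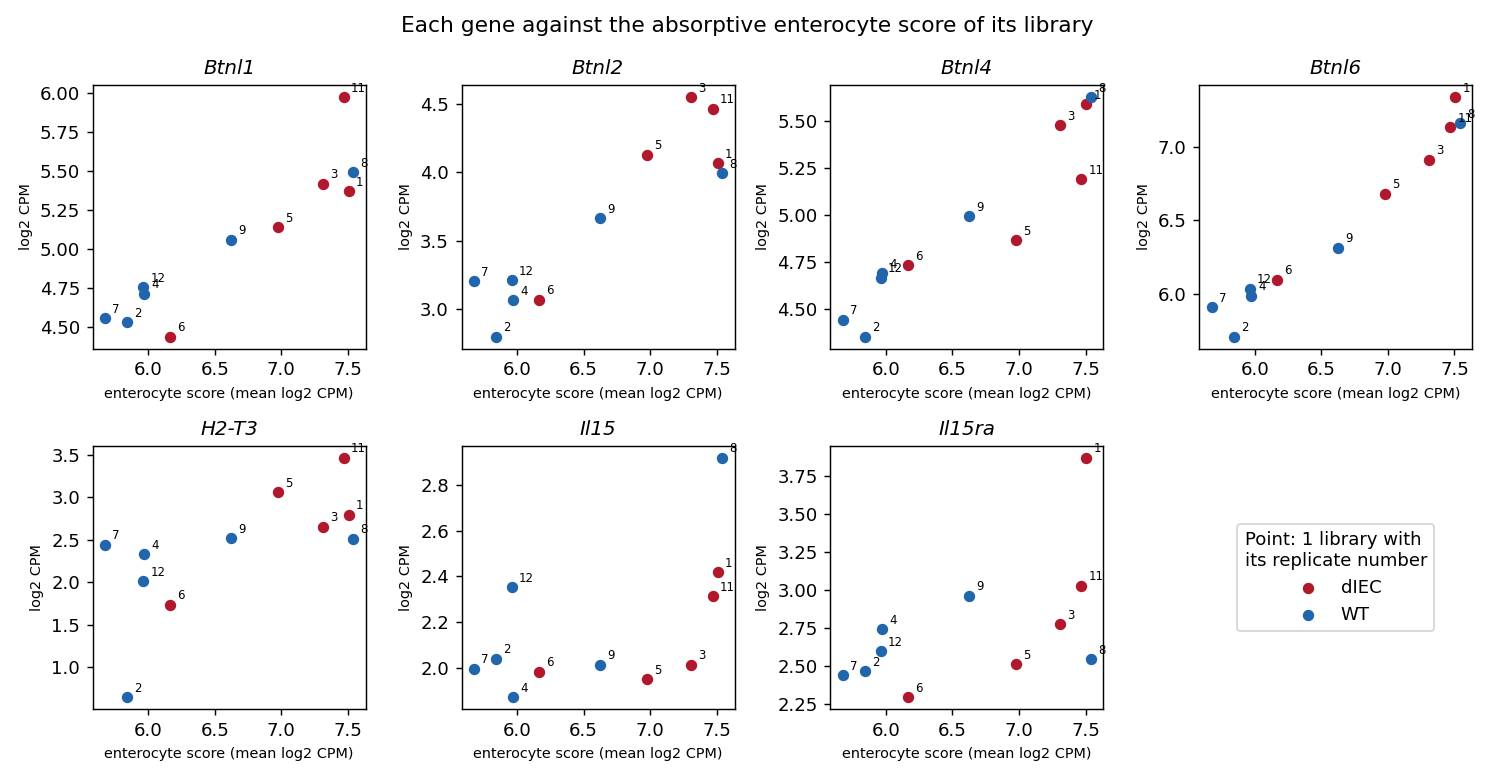
Log2 CPM of each gene (vertical axis) against the mean log2 CPM of the absorptive enterocyte genes of the same library (horizontal axis), with dIEC in red and WT in blue and replicate numbers beside the points. Btnl6 lies close to a line through libraries of both groups (r = 0.980), while Il15 (r = 0.556, or 0.759 for deviations from the group means) and Il15ra (0.558, or 0.479) lie more widely. The vertical axis has no prior count, whereas r was computed from log2 CPM with a prior count of 2.

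With the epithelial content score as a covariate, the log2 fold change was 0.28 for Btnl2, 0.27 for H2-T3, 0.24 for Il15ra, 0.14 for Btnl6, -0.0089 for Btnl1, -0.035 for Btnl4 and -0.37 for Il15. With the absorptive enterocyte score it was 0.22 for Btnl2, 0.20 for H2-T3, 0.055 for Il15ra, 0.029 for Btnl6, -0.084 for Btnl1, -0.12 for Btnl4 and -0.40 for Il15. None of the 7 passed in either fit (edgeR adjusted p = 0.9999 for each, 0 of 7), where 1 of all genes tested passed in each. The median of the 7 was 0.14 and 0.029 in these fits, against 0.46 without a covariate. After subtraction of the epithelial content score, Btnl2 lay at -3.50 ± 0.411 log2 CPM in dIEC and -3.91 ± 0.174 in WT (SD). Of its 5 dIEC values, 4 were above all WT values. The number was 3 of 5 for Btnl1, 2 for Btnl4, Btnl6 and H2-T3, 1 for Il15ra and 0 for Il15. After subtraction of the enterocyte score it was 0 of 5 for each of the 7. The share of all genes with such placings after subtraction was not computed. The part of epithelial composition in the fold changes was not tested further.

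**Figure D4:**
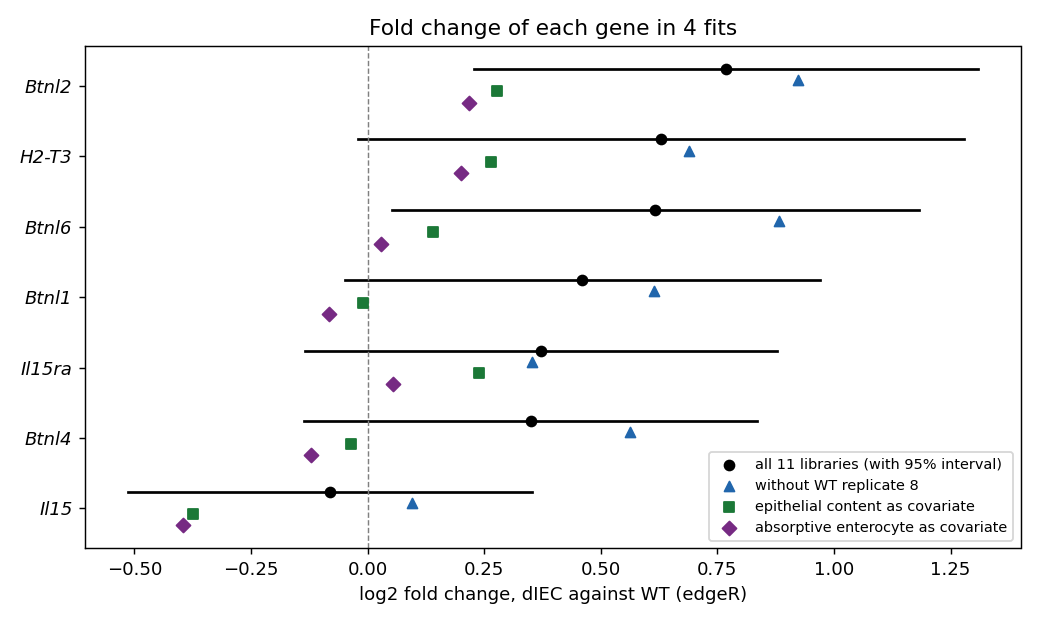
Log2 fold change, dIEC against WT, of each gene (horizontal axis) with all 11 libraries (black, with the 95% interval), without WT replicate 8 (blue), and with the epithelial content score (green) or the absorptive enterocyte score (purple) as a covariate. The intervals of Btnl2 and Btnl6 lie above 0 before adjustment over all genes, and every gene moves toward lower values with either covariate.

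Among other ligands and signals of epithelium and stroma for these lymphocytes, 13 of 15 tested genes were above 0 in log2 fold change (median 0.21), and 0 of 15 passed. The shares over all genes tested were 48.8% above 0 and 0.00628% passing. The epithelial cadherin gene Cdh1, whose product is the ligand of the integrin CD103, had 0.20 ± 0.16 (SE) and the chemokine gene Ccl25 had 0.32 ± 0.19. Those with the lowest p were Lgals9, the gene of galectin-9, at 0.50 ± 0.16, and Cd274, the gene of the inhibitory ligand PD-L1, at 0.55 ± 0.20 (edgeR adjusted p = 0.427 for both). Icosl was at 0.0021.

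On the lymphocyte side, 17 of 18 tested receptor and effector genes were above 0 (median 0.62), and 0 of 18 passed. Of all genes tested, 48.8% were above 0 and 0.00628% passed. The list had 33 genes in the table, of which 18 had enough counts to test. Cd8a, whose product binds H2-T3, had 2.85 to 11.1 CPM in dIEC and 1.70 to 4.17 CPM in WT, with a log2 fold change of 1.15 ± 0.34 (SE, edgeR adjusted p = 0.427). Itgae, the alpha chain gene of CD103, had 0.80 ± 0.23, and Ccr9, the receptor gene for Ccl25, had 0.38 ± 0.21 (edgeR adjusted p = 0.427 and 0.504). Ccl5 and Cd3e had the lowest p of the list, at 1.24 ± 0.25 and 0.87 ± 0.23, and Itgb7 the highest, at 0.075 ± 0.28. The variable gene Tcrg-V7 and the constant gene Trdc of the gamma-delta receptor were in the table with too few counts to test, so the partner cells of Btnl1 and Btnl6 were not measured as such. Of the signalling chains through which lymphocytes read interleukin-15, Il2rb averaged 3.01 ± 1.73 CPM in dIEC and 2.23 ± 0.387 CPM in WT, and Il2rg 1.60 ± 0.298 CPM in dIEC and 1.48 ± 0.878 CPM in WT (SD, n = 5 and 6). In the list of receptor and signalling genes of this cytokine 13 of 16 lay above 0 (median 0.14) and 0 passed. The feedback inhibitors Socs1 and Socs3 had the lowest p of that list, at 1.41 ± 0.31 and 1.64 ± 0.41 (edgeR adjusted p = 0.427 for both), and Stat5b lay at 0.0069. The 3 genes of the list below 0 were Stat5a at -0.29 ± 0.15, Shc1 at -0.073 ± 0.088 and the feedback inhibitor Cish at -0.040 ± 0.26. Which cells or cytokines set these levels in the whole tissue was not tested.

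Candidate regulators were measured in the same fit. All 18 tested genes of the list were above 0 (median 0.21), against 48.8% of all genes tested. Of the 18, 0 passed, where 0.00628% of all genes did. Hnf4a and Hnf4g, nuclear receptors of enterocytes, had log2 fold changes of 0.19 ± 0.18 and 0.22 ± 0.24 (SE), and the intestinal homeobox gene Cdx1 0.013 ± 0.12. Irf1, a transcription factor gene of the interferon response, had 0.21 ± 0.16, and Nlrc5, the transactivator of class I genes, 0.89 ± 0.22 (edgeR adjusted p = 0.427 for Nlrc5). Of 10 genes of the class I light chain and peptide supply, 10 lay above 0 with a median of 0.43, and Psmb8 had 0.74 ± 0.19.

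Other cell types can make some of these transcripts. Myeloid markers, of cells that also present interleukin-15, summed to 99.2 to 169 CPM in dIEC and 65.0 to 178 CPM in WT, with 4 of 14 above 0 and a median of -0.071. B cell markers summed to 3.26 to 7.13 CPM in dIEC and 4.57 to 7.38 CPM in WT. Fibroblast and matrix genes lay below 0 in 10 of 10 cases (median -0.77, 330 to 558 CPM in dIEC and 338 to 1066 CPM in WT), and smooth muscle genes in 10 of 10 (median -0.37). Over all genes tested, 48.8% lay above 0 and 0.00628% passed edgeR's adjusted threshold. None of the myeloid, fibroblast or smooth muscle genes passed it. No marker of these lists was at 0 in all libraries. Their part in the results was not tested.

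The 3 promoters below are shown because Btnl2 and H2-T3 had the highest fold changes of the 7. Btnl1 was added as a paralog that, like Btnl2, shared 0% of its transcript stretches with other genes. They span 250 bases before to 50 after the RefSeq start (GRCm38.p6), with the motif matches in capitals. The search covered 5 motifs on both strands: the HNF4 element CAAAGTCCA, the CDX element TTTATNG, the core of the interferon-stimulated response element (GAAA, any 2 bases, GAAA), the gamma-activated site TTCNNNGAA and the NF-kappaB element (GGGAC then TTTCC).
Btnl2 (chr17:34354572-34354871, plus strand): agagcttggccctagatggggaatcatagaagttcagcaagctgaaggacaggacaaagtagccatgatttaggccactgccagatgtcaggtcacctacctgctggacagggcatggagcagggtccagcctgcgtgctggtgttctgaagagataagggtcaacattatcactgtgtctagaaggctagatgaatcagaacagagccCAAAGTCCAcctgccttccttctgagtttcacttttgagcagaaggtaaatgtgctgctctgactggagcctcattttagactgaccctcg
H2-T3 (chr17:36190102-36190401, minus strand): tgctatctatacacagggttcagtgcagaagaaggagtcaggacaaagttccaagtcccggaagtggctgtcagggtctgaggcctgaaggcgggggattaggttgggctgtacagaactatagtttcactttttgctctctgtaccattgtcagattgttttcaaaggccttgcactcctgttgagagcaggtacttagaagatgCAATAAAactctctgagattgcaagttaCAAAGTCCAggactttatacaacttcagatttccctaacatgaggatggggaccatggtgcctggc
Btnl1 (chr17:34376882-34377181, plus strand): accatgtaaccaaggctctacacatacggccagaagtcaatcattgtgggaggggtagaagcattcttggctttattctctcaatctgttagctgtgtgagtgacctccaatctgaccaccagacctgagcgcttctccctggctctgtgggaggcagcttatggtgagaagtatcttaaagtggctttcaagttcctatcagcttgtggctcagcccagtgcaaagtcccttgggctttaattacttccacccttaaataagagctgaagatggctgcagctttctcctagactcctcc
The HNF4 element was in the Btnl2 and H2-T3 windows and in 0.475% of 32851 promoters of the same length. The H2-T3 window also held a CDX element on the opposite strand, a motif found in 10.9% of promoters. The GENCODE start of H2-T3, at 36190287, lies inside this window and upstream of the RefSeq start. Both H2-T3 matches therefore fall within the GENCODE gene. The other 3 motifs, present in 3.44%, 8.30% and 0.155% of promoters, had no match in these windows, and Btnl1 had none of the 5. The motifs were chosen after the fold changes were known, and a match is a string of letters and no measured binding. Of the 7 genes, 6 had an entry in the promoter table, and Il15 had none. The windows of Btnl4, Btnl6 and Il15ra, which are not printed, held 0 of the 5 motifs, so the HNF4 element was found for 2 of the 6 genes.

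By likeness of log2 CPM over the 11 libraries among genes averaging at least 5 CPM, those closest to Btnl6 were 2200002D01Rik (Pearson's r = 0.992), Xpnpep1 (0.988), Gal3st2c (0.986), Tmbim6 (0.986) and Anks4b (0.985). Closest to Btnl4 were Clrn3 (0.985), Trim40 (0.978), Btnl7-ps (0.972), Iqgap2 (0.968) and Eps8 (0.967). Among those closest to Btnl1 were Slc35b1 (0.970), Fam213b (0.966), Gna11 (0.965) and Limd1 (0.961). Closest to Btnl2 were H2-Bl (0.978), Rwdd2b (0.965), Slc35b1 (0.965), H2-Q2 (0.964) and Ralb (0.961). For H2-T3 they were Dip2a (0.968), Kbtbd11 (0.935), Fam78a (0.912), Asb13 (0.906) and Erap1 (0.881), for Il15 Crot (0.934), Ugt2b34 (0.928), Abcc3 (0.926), Hoxb5 (0.922) and Slc44a1 (0.912), and for Il15ra Pdk4 (0.949), Klf11 (0.933), Gm47428 (0.931), Ranbp9 (0.915) and Ankrd16 (0.912). These are the highest of many values over few libraries and are given as a description. Among the 7 themselves, Btnl1 and Btnl2 had r = 0.917, Btnl4 and Btnl6 r = 0.939, Btnl1 and Btnl6 r = 0.904, and Il15 and Il15ra r = 0.244. Because Btnl4, Btnl6 and Btnl7-ps share stretches of sequence, as shown above, r between them is less certain.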

How the data were processed

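RNA of 11 ileum libraries, 5 dIEC and 6 WT, was analysed. TopHat2 and the build mm10 are named per the submitters' processing notes. Per the labels' protocols, libraries were made with a directional NEBNext Ultra kit. No counting tool, strand setting or annotation is named in the sources used here. The table deposited by the authors holds raw counts, whole numbers for each gene. All columns matched a sample by name. 1 row without a gene name, 0.00778 to 0.0147% of a library's counts, was left out. Coordinates and exon lengths come from GENCODE vM21 (GRCm38, the same build), which holds 99.2% of the symbols.

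Analysis used R 4.3.3. Genes kept by filterByExpr of edgeR 4.0.16 were scaled by TMM and tested with the robust quasi-likelihood F test over all genes, adjusted by Benjamini-Hochberg (threshold 0.05). The code was tested on simulated data. DESeq2 1.42.0, other scalings and filters, 2 covariate scores (mean log2 CPM of a list, prior count 2) and leaving out each library were alternatives. Ratios of counts (0.5 added) were tested by exact permutation, two-sided, over the 462 assignments of libraries to groups, whose smallest p is 0.00216. Correlations have 100000 permutations. The design text counts as many mice as libraries, and every pair of libraries of a group differed by more than counting noise (chi-square over degrees of freedom 9.99 to 74.8). Intervals on counts cover counting error only. The genes and lists were chosen with earlier results of these data known. Named beside the 7 were, per list, the 2 genes of lowest and the 1 of highest p, a few fixed partners, and per gene the 5 most alike; some genes under this rule are not reported here. Genes mentioned for low detection, and the interleukin-15 signalling genes named for lying below 0, were chosen after their values were seen.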

Additional observations from a re-analysis of the deposited data

Results flagged for a closer look

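In 22 groups of values (7 genes and 4 ratios in 2 groups each) 4 values, from 2 libraries, lay apart from their group, where chance flags about 1 in 20 groups. WT replicate 8 was the highest of 6 for Btnl6 at 143 CPM, with a gap to the next library of 0.699 of the group's range (critical value 0.625), for Il15 at 7.57 CPM (gap 0.630), and for the log2 ratio of Btnl6 to Btnl1 at 1.66 (gap 0.640). The same library had the highest absorptive enterocyte score, 7.54. WT replicate 2 was the lowest of 6 for the log2 ratio of H2-T3 to B2m at -6.13 (gap 0.722), a value that rests on 11 counts of H2-T3.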

How the results depend on the processing

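Over 21 alternatives the log2 fold changes of Btnl2, Btnl6, H2-T3 and Il15ra stayed above 0. Those of Btnl1 and Btnl4 turned with the epithelial content covariate (-0.0089 and -0.035) and the enterocyte covariate (-0.084 and -0.12), and that of Il15 turned without WT replicate 8 (-0.15 to 0.096 with 1 library left out). The median of the 7 genes was 0.14 and 0.029 with these covariates. Leaving out 1 library at a time, 0 to 1 of the 7 genes and 1 to 319 of all genes passed edgeR; DESeq2 called 11 genes and library size alone 2. With library size alone the median of all genes was -0.22, and the signs of the 7 genes were as in the fit with TMM. With 1 library left out, the log2 difference in the ratio of Il15ra to Il15 ran from 0.16 to 0.44 and that of Btnl6 to Btnl1 from 0.13 to 0.33. Btnl4 to Btnl1 ran from -0.14 to 0.13, with 0.13 by medians, and H2-T3 to B2m from -0.18 to 0.12, with -0.25 by medians. The cause was not tested. No paired analysis was possible because no replicate number occurs in both groups. Counts of 11 to 101 per library limit H2-T3, Il15 and Il15ra.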
